A study of Mus musculus with 2 samples.

Results

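Fibroblasts of the intestinal lamina propria that carry a set of adventitial genes led by Pi16 are described here from 2 single-cell RNA libraries. A cell was counted when its barcode had at least 3000 unique molecular identifiers (UMIs, each standing for 1 captured RNA molecule), at most 20% of them mitochondrial, at least 1 Pdgfra UMI, and 0 UMIs of Ptprc, Epcam and Pecam1. Membership came from detection (at least 1 UMI) of genes in 4 sets of 6. The choosing set is Pi16, Has1, Mfap5, Cd248, Pcolce2 and Emilin2. The other sets are led by Lpl (with Penk, Plau, Alkal2, Col6a6 and Dpep1), by Adamdec1 (with Ereg, Fgfr2, Col6a5, Lrat and Scube1) and by Grem1 (with Stc2, Ackr4, Col8a1, Gdf6 and Serpina3n). Cells with at least 3 genes of the choosing set and fewer genes of each other set are called Pi16 cells, and the Lpl, Adamdec1 and Grem1 groups were formed in the same way. The rule found 1124 Pi16 cells among 13168 barcodes past the UMI and mitochondrial limits, 758 in ApcMin and 366 in VApcMinL.

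The study asks what loss of Lef1, a DNA-binding partner of beta-catenin, does in mice prone to intestinal tumors. The ApcMin library came from ApcMin/+;Lef1 +/+ mice and the VApcMinL library from mice with ApcMin/+, Lef1 fl/fl and Villin-Cre, both C57BL/6 and 11 weeks old by the labels (the paper's results text gives 10 weeks). Both genotypes therefore carry the ApcMin allele, and no library without it exists in these data. Villin drives Cre in the epithelium, so the allele is not deleted in fibroblasts by that design, and Lef1 had 2 and 1 UMIs in the Pi16 cells of ApcMin and VApcMinL. Lamina propria was digested with EDTA and Liberase, cells negative for DAPI, Ter119, Epcam and CD45 were sorted, and each genotype gave 1 library, for which the number of mice and the segment of intestine are not given. The ApcMin library held 93203061 UMIs and the VApcMinL library 101609269. The submitters aimed at 8000 to 10000 cells per library, and 6599 and 6569 barcodes passed the limits. Of these, 3441 and 3778 had a Pdgfra UMI, and 2994 and 2954 also lacked Ptprc, Epcam and Pecam1. The libraries shared 18 barcodes past the limits and 0 among the Pi16 cells.

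Adventitial fibroblasts lie in the outer sleeve of vessels and in the deeper connective tissue of the gut. In mice, fibroblasts with Pi16 and Dpp4 have been described in many organs and carry Cd34, Ly6c1 and Ly6a on their surface. Has1 makes hyaluronan, a long sugar polymer that swells the matrix, and Mfap5 and Emilin2 belong to elastic fibers and microfibrils.

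Levels are given as CPM, the UMIs of a gene among 1000000 UMIs of the cells of that group and library. Pi16 cells gave 11912898 UMIs in ApcMin and 5253916 in VApcMinL, with medians of 15364.5 and 13958.0 UMIs and 3981 and 3743 genes per cell. The other groups were shallower, with medians of 11869.0 and 9658.50 UMIs for Lpl, 12116.5 and 9311.00 for Adamdec1 and 14171.0 and 12077.0 for Grem1. Intervals are exact 95% intervals (Poisson for levels, Clopper-Pearson for shares, conditional binomial for ratios) and cover nothing beyond counting error. Since each genotype is 1 library, no test was run, and what differs by genotype cannot be told apart from what differs by mouse or dissection. The groups were cut from the same cells, so ratios between them are descriptions too.

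Each choosing gene was also left out of the rule and measured in cells picked by the other 5. The 6 genes were chosen together with earlier results of these data known, so high levels are part of that choice and do not test the label. Pi16, which encodes peptidase inhibitor 16, then stood at 766 CPM (748 to 785) in ApcMin and 561 CPM (537 to 585) in VApcMinL. In the Lpl group it was at 125 and 35.4 CPM, in the Adamdec1 group at 8.59 and 2.74 CPM, and in the Grem1 group at 66.1 and 106 CPM. The Pi16 gene (ENSMUSG00000024011) lies at chr17:29317680-29330593 on GRCm38. Emilin2, an elastin interface protein, gave 239 and 173 CPM against at most 116 and 74.5 CPM in the other groups. Mfap5, a microfibril protein, gave 1269 and 1264 CPM, and the Lpl group had 456 and 330 CPM of it. Has1 gave 696 and 549 CPM, Cd248 (endosialin, a surface glycoprotein) 725 and 493 CPM, and Pcolce2, an enhancer of procollagen cleavage, 595 and 483 CPM.

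As a description of the choice itself, in the members picked by all 6 genes Pi16 was at 784 and 547 CPM, Has1 at 696 and 567, Mfap5 at 1191 and 1069, Cd248 at 685 and 426, Pcolce2 at 575 and 460, and Emilin2 at 247 and 172. Every choosing gene was lower in the VApcMinL members, with ratios of 0.622 for Cd248 to 0.898 for Mfap5. Genes of the other sets were present as well. Lpl, which encodes lipoprotein lipase, had 704 and 629 CPM in Pi16 cells against 2019 and 1632 CPM in its own group. Adamdec1, a metalloprotease gene, had 91.2 and 182 CPM against 8795 and 11026 CPM in its own group. It was found in 9.89% and 20.5% of members, 10 cells held 61.6% of its UMIs, and 560 members (73.9%) in ApcMin and 215 (58.7%) in VApcMinL had 0 genes of the Adamdec1 set. Fewer members had 0 genes of the Lpl set (4 and 6, or 0.528% and 1.64%) or of the Grem1 set (74 and 20, or 9.76% and 5.46%). Grem1, a BMP antagonist, had 76.1 and 157 CPM against 2693 and 2712 CPM.

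Detection was set beside that in leukocyte barcodes (Ptprc detected, Pdgfra not; 1083 and 673 barcodes, medians of 5846 and 5423 UMIs), which should lack most of these genes. Pi16, whose detection the rule itself raises, was detected in 82.2% and 77.0% of Pi16 cells, or 60.8% and 51.9% once cells were thinned at random to 3000 UMIs, and in 2.86% and 0.892% of leukocytes (0.923% and 0.446% thinned). Ly6c1, a surface antigen gene outside the rule, was found in 90.1% and 77.0% of Pi16 cells, or 69.1% and 54.6% thinned, and in 2.22% and 4.31% of leukocytes. Dpp4, a surface peptidase that some leukocytes also make, was found in 48.0% and 41.0% of Pi16 cells, or 25.6% and 17.5% thinned, and in 15.1% and 17.1% of leukocytes (7.20% and 9.36% thinned). Ly6c1 and Dpp4, which the rule does not use, were thus detected in Pi16 cells above the level that leukocytes showed. They were also found in part of the other fibroblasts. Dpp4 was in 18.9% and 16.2% of the Lpl group (5.72% and 6.25% thinned). Ly6c1 was in 22.0% and 11.1% of the Lpl group and 27.0% and 22.4% of the Grem1 group.

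Many adventitial genes outside the rule were high in Pi16 cells. Their list was written with earlier results of these data known, and genes were tested by their UMIs in the Pi16 cells themselves, so the counts are a description. Of 20 such genes 19 had at least 200 UMIs in the members, and 10 of these 19 were at least 2-fold above each other group in both libraries, against 75 of 7798 genes in all (0.962%). The median log2 ratio of the list to the other groups was 1.76, and that of all genes was -0.03. Anxa3, a calcium-dependent membrane-binding protein, was at 391 and 184 CPM in Pi16 cells, 68.5 and 41.7 CPM in the Lpl group and at most 15.8 CPM elsewhere. Dpp4 was at 144 and 78.8 CPM, with 27.4 and 26.9 CPM in the Lpl group, 1.27 and 2.62 CPM in the Adamdec1 group and 5.03 and 4.21 CPM in the Grem1 group. Ly6a, which encodes Sca-1, was at 2199 and 1667 CPM, where the other groups ranged from 363 to 801 CPM. Fbn1, the microfibril protein fibrillin-1, was at 1951 and 1341 CPM against 435 to 706 CPM. These 4 genes were at least 2-fold above each other group in both libraries, while Cd34 (712 and 580 CPM, at most 479 elsewhere) and Scara5 (450 and 452 CPM, at most 397 elsewhere) differed by less than 2-fold from the Grem1 group. Anxa3, Dpp4, Cd34 and Scara5 were chosen from the list after their values were seen.

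**Figure D1:**
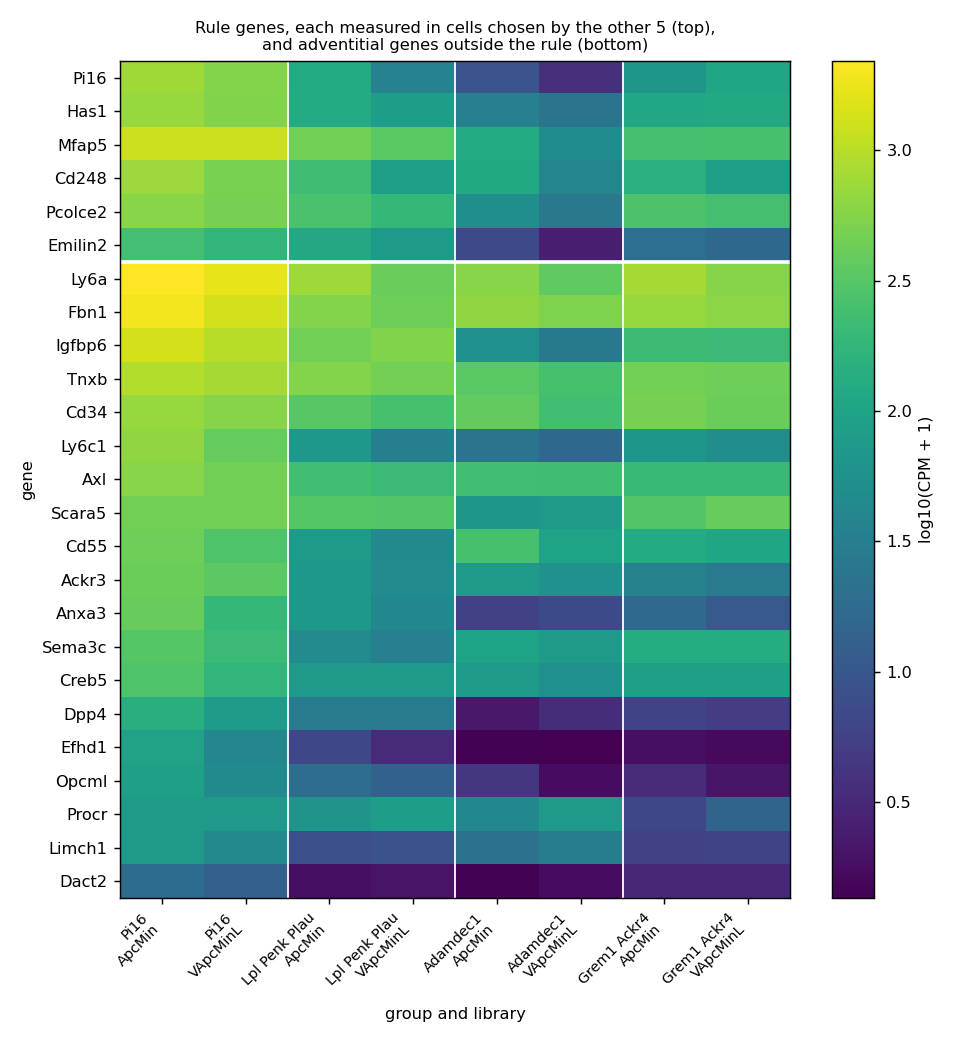
Heat map of log10(CPM + 1) for the 4 groups in each library (columns). The top 6 rows are choosing genes, each measured in cells chosen by the other 5, and the lower rows are the 19 adventitial genes with at least 200 UMIs; the Pi16 columns are the brightest for Pi16 (766 and 561 CPM), Dpp4 (144 and 78.8 CPM) and Anxa3 (391 and 184 CPM).

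The members were not uniform. All 6 choosing genes were detected in 405 members (53.4%) in ApcMin and 153 (41.8%) in VApcMinL, 5 in 282 (37.2%) and 141 (38.5%), 4 in 64 (8.44%) and 57 (15.6%), and 3, the least the rule allows, in 7 (0.923%) and 15 (4.10%). Depth moved with this number, from medians of 5569 and 9574 UMIs with 3 genes to 17208 and 15723 UMIs with 6, and its part was not tested. Just outside the threshold were 6 and 9 cells with 2 choosing genes and fewer of each other set, with medians of 9182.50 and 11308 UMIs. These cells held 0 UMIs of Dpp4 in both libraries and 0 and 3 UMIs of Ly6c1. Another 329 and 231 cells with at least 3 choosing genes tied with another set, and 797 and 484 cells had more genes of another set.

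Levels of genes outside the rule also differed with this number, and cells of equal depth were not compared. Dpp4 was at 31.3 CPM (20.3 to 46.2) in ApcMin members with 3 or 4 choosing genes, 116 CPM (106 to 127) with 5 and 173 CPM (163 to 183) with 6. In VApcMinL members it was at 20.4, 94.0 and 85.3 CPM, so it was low with 3 or 4 genes and alike with 5 and 6. Ly6c1 went from 368 to 529 and 742 CPM in ApcMin and from 204 to 370 and 459 CPM in VApcMinL. Anxa3 went from 124 to 344 and 448 CPM in ApcMin and from 63.6 to 165 and 236 CPM in VApcMinL. At each step the level in VApcMinL was below that in ApcMin for these 3 genes. Among the adventitial genes, Scara5, Procr, Dact2 and Cd34 were higher in VApcMinL at some steps. With 5 choosing genes Scara5 was at 393 CPM in ApcMin and 457 CPM in VApcMinL, and Procr at 58.9 and 71.2 CPM. Dact2 was at 0 and 2.54 CPM with 3 or 4. Cd34 went from 571 to 666 and 755 CPM in ApcMin and from 578 to 557 and 599 CPM in VApcMinL.

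**Figure D2:**
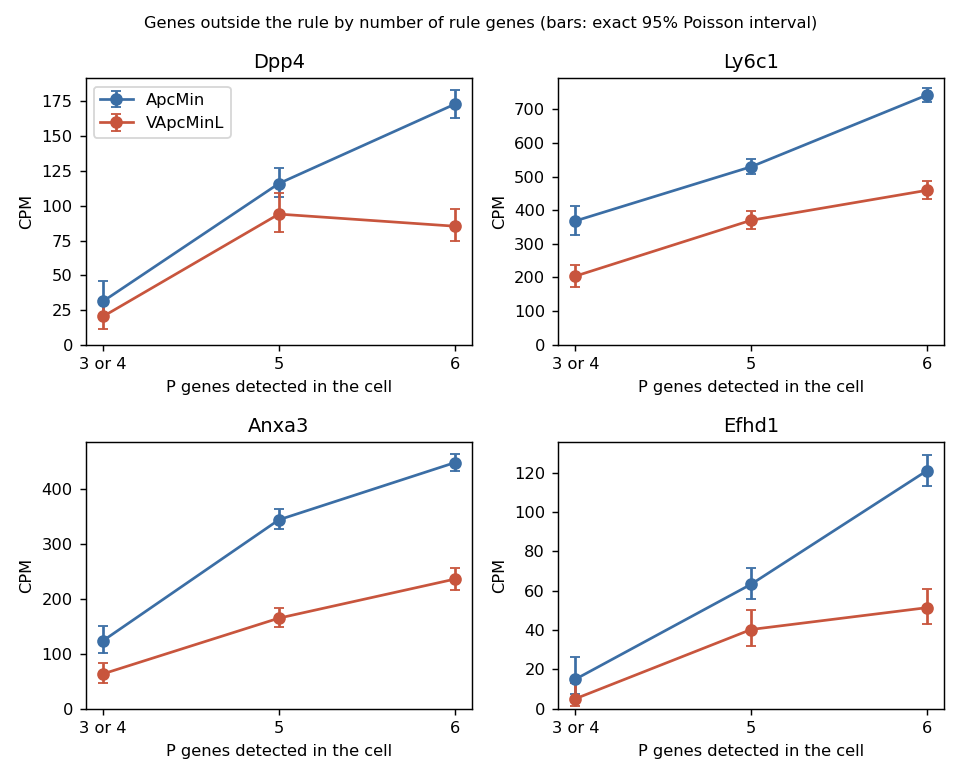
CPM (vertical axis) of Dpp4, Ly6c1, Anxa3 and Efhd1 in Pi16 cells with 3 or 4, 5 or 6 choosing genes detected (horizontal axis), 1 line per library, with exact 95% Poisson intervals. Levels are lowest with 3 or 4 genes in both libraries, as for Anxa3 at 124 CPM in ApcMin and 63.6 CPM in VApcMinL, and VApcMinL lies under ApcMin at each point.

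Within the members, after thinning to 3000 UMIs, some genes were found together. Of Dpp4-positive members, 79.9% in ApcMin and 64.1% in VApcMinL had Anxa3, against 43.1% and 26.5% of Dpp4-negative members (unthinned, 96.4% and 86.7% against 71.6% and 50%). Il6, an inflammatory cytokine gene, was found in 43.3% and 49.7% of Has1-positive members and in 22.6% and 23.6% of Has1-negative members (unthinned, 62.6% and 66.3% against 30.1% and 33.3%). Ccl2, a monocyte chemokine gene, was found in 18.4% and 27.4% of Pi16-positive members and in 32.0% and 36.4% of Pi16-negative members (unthinned, 34.5% and 41.1% against 47.4% and 50%). Dpp4, which the rule does not use, thus went with Anxa3 in both libraries. Has1 and Pi16 are choosing genes, so members lacking either had qualified on the other choosing genes. The splits by Has1 and Pi16 therefore depend on the rule, and only describe members picked in that way. These pairs were chosen after their values were seen and were not tested.

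Beyond the choosing genes, the genes ranked highest over the other groups included 3 genes of secreted proteins best known from epidermis. Dmkn, which encodes dermokine, was at 32.2 and 21.7 CPM in Pi16 cells and had 0 UMIs in the Lpl group of both libraries, at least 111-fold and 51.2-fold lower with a floor of 3 UMIs. It was found in 9.63% and 4.37% of members, and 10 cells held 42.3% of its UMIs. Krtdap, a keratinocyte differentiation gene, was at 62.7 and 25.3 CPM against at most 1.25 CPM in the other groups. Sbsn, which encodes suprabasin, was at 105 and 76.1 CPM against 7.01 to 12.8 CPM.

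The other leading genes were of several kinds. Efhd1, a mitochondrial calcium-binding protein, was at 94.1 and 40.4 CPM against at most 5.49 CPM. Cmah, the enzyme that makes the sialic acid Neu5Gc, was at 107 and 61.5 CPM against at most 6.07 CPM. Nov, a matricellular CCN protein, was at 88.5 and 41.5 CPM against at most 7.22 CPM. The ranking also held 2 secreted Wnt-pathway genes and a Wnt regulator. Wnt10b, a Wnt ligand, had 15.8 and 6.47 CPM against at most 0.575 CPM, Sfrp2, a Wnt-binding protein, 34.1 and 23.4 CPM against at most 4.17 CPM, and Dact2, which binds Dishevelled, 17.7 and 12.2 CPM against at most 2.15 CPM. Ackr3, a scavenger receptor for the chemokine Cxcl12, was at 415 and 339 CPM against 28.0 to 71.1 CPM. Ly6c1 was at 643 and 388 CPM against 15.2 to 68.5 CPM. The rest of the 15 leading genes were Stmn4 (20.9 and 16.2 CPM), Islr2 (17.9 and 13.1 CPM), Ptx3 (109 and 134 CPM) and Ren1. Ren1, which encodes renin, had 8.23 and 22.8 CPM, with 52.3% of its UMIs in 10 cells and a weakest log2 ratio of 3.42 that was 0.46 when cells were thinned before the rule.

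Position was examined for the 75 genes above each other group, all 75 of which had a position in the annotation. Sbsn, Dmkn and Krtdap lie in that order on chromosome 7, all on the plus strand, at chr7:30751471-30756134, chr7:30763756-30781063 and chr7:30787896-30791097 on GRCm38. The gaps are 7622 and 6833 bases and hold 0 other coding genes. The other pairs within 100 kilobases were Ackr1 with Cadm3, Ly6a with Ly6c1, and Lrrc8b with Lrrc8c. Genes that flank the 3 did not share their pattern: Gapdhs and Ffar2 had 0 UMIs in Pi16 cells, and Tmem147 had 52.9 and 58.1 CPM against 40.0 to 53.6 CPM in the other groups. The 300 bases around the RefSeq start of these 3 neighbors are printed because all 3 were among the 15 leading genes, and capitals mark TGASTCA (S is C or G), the core letters bound by AP-1 factors. All 3 windows are on the plus strand of GRCm38.p6, at chr7:30751221-30751520 for Sbsn, chr7:30763506-30763805 for Dmkn and chr7:30787655-30787954 for Krtdap.
Sbsn: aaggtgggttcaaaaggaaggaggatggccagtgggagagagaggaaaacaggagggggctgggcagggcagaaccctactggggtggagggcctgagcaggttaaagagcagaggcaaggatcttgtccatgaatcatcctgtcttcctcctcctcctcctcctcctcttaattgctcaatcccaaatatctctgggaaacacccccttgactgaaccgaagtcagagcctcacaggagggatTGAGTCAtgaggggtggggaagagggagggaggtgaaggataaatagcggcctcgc
Dmkn: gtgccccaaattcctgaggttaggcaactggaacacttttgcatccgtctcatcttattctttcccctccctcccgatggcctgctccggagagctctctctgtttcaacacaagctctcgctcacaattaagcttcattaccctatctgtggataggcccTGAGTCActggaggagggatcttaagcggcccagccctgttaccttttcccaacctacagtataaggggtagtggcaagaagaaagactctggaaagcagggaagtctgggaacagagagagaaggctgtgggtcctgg
Krtdap: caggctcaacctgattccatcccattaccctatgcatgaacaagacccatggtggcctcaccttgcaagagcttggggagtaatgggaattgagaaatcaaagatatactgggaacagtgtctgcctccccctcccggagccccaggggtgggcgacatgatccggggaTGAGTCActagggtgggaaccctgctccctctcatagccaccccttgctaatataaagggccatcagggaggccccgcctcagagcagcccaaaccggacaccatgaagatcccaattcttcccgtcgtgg
Each of the 3 windows held 1 match.

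Of the 75 genes, 52 matched a RefSeq promoter window, and 6 of these (11.5%) held TGASTCA against 1396 of 27025 windows in all (5.17%). With any middle base, the pattern counted first, these were 7 (13.5%) and 2144 (7.93%). The 6 and the 7 both include the neighbors Sbsn, Dmkn and Krtdap, whose windows are printed above. Counting both strands, the TATA-box letters TATAAA were in 13.5% against 14.2%, the letters CTTTGA of TCF and LEF factors in 15.4% against 16.2%, and the letters GGAATG of TEAD factors in 19.2% against 14.6%. The CTTTGA letters, of the kind that Lef1 binds, were thus about as frequent as over all promoters. A match is a description of letters and not of binding.

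Some enzymes that supply hyaluronan synthesis were high in Pi16 cells. The list of 17 hyaluronan genes was written after their values were seen, so its counts are a description. Of 11 with at least 200 UMIs and outside the rule, 4 were at least 2-fold above each other group (Gfpt2, Uap1, Ugdh and Ptx3; over all genes 0.962% were), and the list's median log2 ratio was 1.03 against -0.03 for all genes. Gfpt2, which starts the hexosamine pathway, was at 666 and 534 CPM against 31.2 to 171 CPM. Uap1, which makes UDP-N-acetylglucosamine, was at 273 and 239 CPM against 33.1 to 81.6 CPM. Ugdh, which makes UDP-glucuronate, was at 775 and 491 CPM against 111 to 166 CPM. The other 4 enzymes on the routes to the sugar precursors did not pass: Gfpt1 (70.1 and 51.2 CPM), Gnpnat1 (40.2 and 31.2 CPM), Pgm3 (42.9 and 48.2 CPM) and Ugp2 (230 and 198 CPM).

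Among the synthases, Has2 was at 76.1 and 52.5 CPM against 7.42 and 6.93 CPM in the Lpl group, 20.0 and 48.8 CPM in the Adamdec1 group and 2.15 and 5.51 CPM in the Grem1 group, while Has3 had 2 and 4 UMIs. Ptx3, a pentraxin that joins the hyaluronan matrix, was at 109 and 134 CPM against 2.55 to 20.1 CPM. Tnfaip6, which transfers heavy chains onto hyaluronan, was at 705 and 576 CPM against 165 to 496 CPM. Of the genes that break hyaluronan down, Hyal1 was at 4.78 and 5.71 CPM, Hyal2 at 6.88 and 10.8 CPM and Tmem2 at 3.27 and 5.52 CPM, and Cemip had 0 and 1 UMI. In VApcMinL, 0 of the 11 genes differed 2-fold from ApcMin (over all genes 0.898% were higher and 0.500% lower), and the list's median log2 ratio was -0.29.

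**Figure D3:**
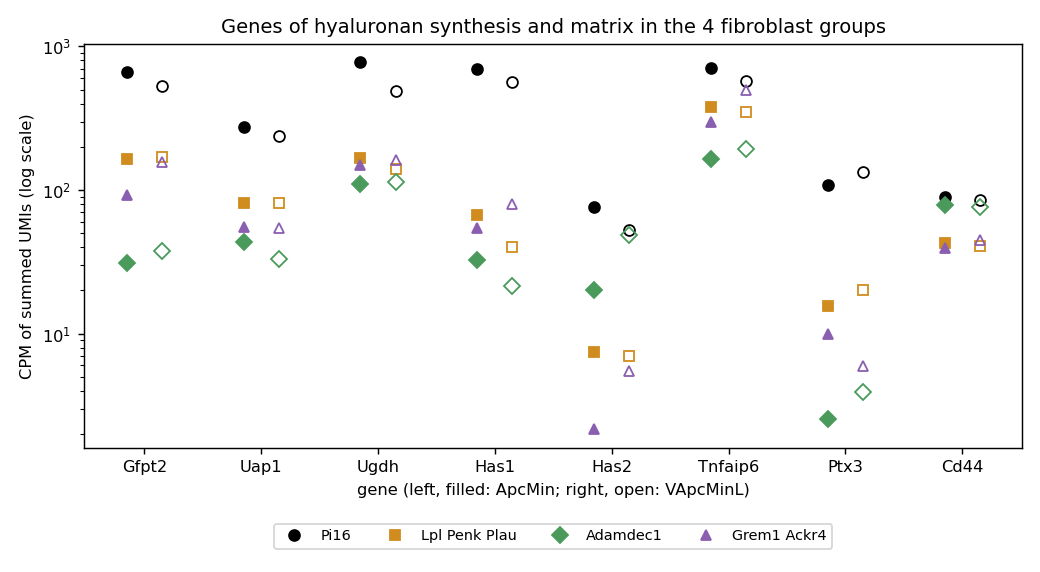
CPM on a log axis of 8 genes of hyaluronan synthesis and matrix, chosen after their values were seen, in the 4 groups; filled symbols are ApcMin and open symbols VApcMinL, 1 library each. Pi16 cells (black circles) lie highest in both libraries for all 8 genes, as for Gfpt2 (666 and 534 CPM), and Has1 was part of the rule.

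General fibroblast and matrix genes were counted next. Genes below each other group were counted among those with at least 200 UMIs in each other group, of which 35 of 6493 (0.539%) passed. With 0.962% of genes above and 0.539% below each other group, 0 is common for lists of the sizes used here and in the paragraphs that follow. Of general fibroblast genes, 0 of 14 were above and 0 of 12 below each other group (median log2 -0.20). Dcn, the proteoglycan decorin, was at 16633 and 18885 CPM and the collagen gene Col3a1 at 4855 and 4801 CPM, the latter below the Grem1 group (10243 and 8831 CPM). Fn1, which encodes fibronectin, was at 2158 and 1386 CPM against 318 and 188 CPM in the Lpl group, 231 and 261 CPM in the Grem1 group and 1083 and 999 CPM in the Adamdec1 group. Pi16 cells thus carried general fibroblast genes, with fibronectin highest among the 4 groups.

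Of 18 tested elastic fiber genes, 1 (Fbn1) was above each other group, and the median log2 ratio was -0.10. Efemp1, a fibulin, was at 910 and 702 CPM against 210 to 591 CPM, and Fbln2, another fibulin, at 1201 and 1375 CPM against 286 to 343 CPM in the Adamdec1 and Grem1 groups and 1053 and 895 CPM in the Lpl group. Mfap4, a microfibril-associated protein, was lower than in the Adamdec1 group (144 and 316 CPM against 1185 and 810 CPM). In the remaining matrix lists, 0 of 12 interstitial collagens (median -0.32) were past 2-fold against each other group. Of basement membrane genes, 0 of 13 were above and 0 of 12 below each other group (median -0.30). Col1a1, a chain of type I collagen, was at 1706 and 1982 CPM against 6011 and 5662 CPM in the Grem1 group. Col4a1, a chain of type IV collagen, was at 853 and 852 CPM against 2217 and 2010 CPM in the Lpl group. Of 12 collagen-processing genes (median -0.04), Plod1, a lysyl hydroxylase, was below each other group at 33.2 and 32.2 CPM against 79.5 to 107 CPM. Ugdh was the only 1 of 13 proteoglycan and hyaluronan genes (median 0.63) above each other group.

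Proteases and their inhibitors gave 0 of 18 genes past 2-fold against each other group (median 0.21). Timp2, a metalloprotease inhibitor, was at 1981 and 1495 CPM against 485 to 1259 CPM. Adamts5, an aggrecanase, was at 762 and 421 CPM, near the Lpl group (873 and 809 CPM) and above the Adamdec1 and Grem1 groups (83.0 to 101 CPM). Mmp10, which breaks down matrix, had 4 and 1 UMIs in Pi16 cells and 338 and 313 CPM in the Adamdec1 group, a gene chosen after its values were seen.

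Secreted signals of the Wnt and BMP families followed (over all genes 0.962% were above each other group). Of 7 tested Wnt ligands and R-spondins, 1 (Wnt10b) was above each other group (median 0.97). Wnt5a, a ligand of the noncanonical branch, was at 174 and 161 CPM against 61.6 to 132 CPM, and Rspo3, which strengthens Wnt signals to stem cells, at 93.9 and 64.7 CPM against 212 and 173 CPM in the Grem1 group. Of 7 tested Wnt inhibitors, 2 were above each other group (Sfrp2 and Sfrp4), and the median was -0.41. Sfrp1, a Wnt-binding protein like these 2, was at 516 and 697 CPM against 4672 and 3956 CPM in the Adamdec1 group. Wnt10b was found in 14.9% and 6.56% of members, Sfrp2 in 13.7% and 9.56% and Sfrp4 in 23.4% and 10.7%, and 10 cells held 34.0% of the Sfrp2 UMIs. Sfrp2 and Sfrp4 were thus detected in a minority of Pi16 cells, and the Adamdec1 group had more Sfrp1.

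Of 9 tested BMP ligands and antagonists (median -0.05), Fstl1, a follistatin-like secreted protein, was above each other group, at 1436 and 1187 CPM against 394 to 640 CPM. Bmp4, a ligand that limits crypt proliferation, was below each other group, at 73.6 and 70.4 CPM against 213 to 483 CPM. Among 18 growth factors (median -0.18), Fgf18 and Fgf1 were above each other group and Kitl below (over all genes 0.962% were above and 0.539% below). Fgf18, a fibroblast growth factor, was at 56.3 and 37.3 CPM against 13.4 and 9.47 CPM in the Lpl group and at most 7.90 CPM elsewhere. Kitl, the ligand of the receptor Kit, was at 16.2 and 32.5 CPM against 253 and 366 CPM in the Adamdec1 group. The TGF-beta and activin list had 0 of 10 genes above and 0 of 8 below each other group (median 0.03).

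Of chemokines and cytokines, 0 of 17 were above and 0 of 13 below each other group (median -0.15). The Lpl group shared several of the high levels. Cxcl1, which draws neutrophils, was at 1878 and 1640 CPM, with 1479 and 1307 CPM in the Lpl group and 68.4 to 450 CPM elsewhere. Ccl11, the eosinophil chemokine eotaxin, was at 752 and 947 CPM against 2006 and 2550 CPM in the Lpl group. Il33, an alarmin chosen after its values were seen, was at 356 and 502 CPM against 135 to 225 CPM. Complement genes had 0 of 11 past 2-fold (median -0.08), with C3, the central complement protein, at 3089 and 3527 CPM.

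IGF-binding proteins had 0 of 5 above and 0 of 4 below each other group (median 0.71). Igfbp6 was at 1367 and 992 CPM against 461 and 539 CPM in the Lpl group and 25.7 to 216 CPM elsewhere. Igfbp5 was at 599 and 412 CPM, near the Adamdec1 group (661 and 443 CPM) and above the others (31.3 to 66.6 CPM). Guidance genes had 0 of 11 above and 2 of 9 below each other group, Robo2 and Nrp2 (median 0.11). Sema3c, a secreted semaphorin, was at 315 and 207 CPM against 32.9 to 131 CPM, and Nrp2, a semaphorin co-receptor, at 16.7 and 16.2 CPM against 40.0 to 111 CPM. Retinoid genes had 0 of 9 above and 0 of 8 below (median -0.40), and hedgehog and Fox genes 0 of 10 above and 0 of 9 below (median -0.45). Ptch1, the hedgehog receptor, was at 36.5 and 66.2 CPM against 336 and 532 CPM in the Adamdec1 group.

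Of transcription factors of mesenchyme, 0 of 17 were above and 0 of 12 below each other group (median 0.51). Ebf1 was at 988 and 732 CPM, as in the Lpl group (963 and 862 CPM), against 46.1 and 37.8 CPM in the Adamdec1 group. Ebf2 was at 163 and 103 CPM against 133 and 89.8 CPM in the Lpl group and 0 and 1.79 CPM in the Adamdec1 group. Gata6, chosen after its values were seen, was at 46.6 and 54.6 CPM, with 48.9 and 54.6 CPM in the Lpl group and 1.06 to 3.56 CPM in the Adamdec1 and Grem1 groups. For these 3 factors the Pi16 cells were thus near the Lpl group. Among regional factors 0 of 9 were above and 0 of 4 below each other group (median 0.06), with Hoxa9, Hoxc10 and Hoxd10 to Hoxd13 at 0 UMIs in both libraries. Adipogenic genes had 0 of 7 above and 0 of 5 below (median 0.05).

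Genes that respond to tissue digestion were counted in the same way. Immediate early genes summed to 21988 and 23704 CPM, with 9577 and 12913 CPM in the Adamdec1 group and 19006 to 26042 CPM elsewhere, and had 0 of 15 past 2-fold against each other group (median 0.23), with Egr1, a growth-response factor, at 5029 and 5105 CPM and Fos, an AP-1 subunit, at 3780 and 4146 CPM. Heat shock genes summed to 9655 and 10502 CPM against 7442 to 15294 CPM and had 0 of 11 (median 0.19), and interferon genes had 0 of 15 (median 0.08). Of cell cycle genes, 0 of 2 were above and 0 of 1 below (median 0.20). Pcna, a replication clamp, was at 43.9 and 43.6 CPM.

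The 10 lowest genes come from the 35 that lay at least 2-fold below each other group in both libraries. Ppp1r14a, an inhibitor of myosin phosphatase, was at 6.38 and 10.1 CPM against 51.8 to 103 CPM. Ifitm1, an interferon-induced membrane protein, was at 56.3 and 197 CPM against 390 to 1838 CPM. Spon1, the matrix protein F-spondin, was at 50.5 and 79.6 CPM against 384 and 400 CPM in the Lpl group. Robo2, a receptor for Slit proteins, was at 6.30 and 15.6 CPM against 49.6 to 241 CPM, while the ligand Slit3 was at 454 and 583 CPM in Pi16 cells. Apoe, a lipid carrier, was at 182 and 711 CPM against 951 to 3251 CPM, and empty droplets had 878 and 1373 CPM. Ifitm1 and Apoe were also higher in VApcMinL than in ApcMin Pi16 cells, for Apoe by a ratio of 3.91 (3.71 to 4.12), and both were higher in each other group too (ratios of 1.99 to 2.58 for Ifitm1 and 2.49 to 2.73 for Apoe). Robo2 (a ratio of 2.48) and Gucy1b1 (2.03) were higher in VApcMinL Pi16 cells, but both lay below empty droplets (16.9 and 22.5 CPM for Robo2, 27.1 and 29.7 CPM for Gucy1b1). In the other groups the ratios were 0.958 to 1.30 for Robo2 and 0.736 to 1.56 for Gucy1b1. The other 5 of the 10 lowest genes were Kcnn3, Mtss1, Fam198b, Bmp4 and Gucy1b1, and Mtss1 (weakest log2 ratio -1.75) was at -0.97 with 2 or more choosing genes in the rule.

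Over 7798 genes the Pi16 cells lay nearest the Lpl group. The median absolute log2 ratio was 0.21 in ApcMin and 0.23 in VApcMinL, and 6.05% and 5.57% of genes were past 2-fold. Against the Grem1 group it was 0.25 and 0.26 (8.75% and 6.98%), and against the Adamdec1 group 0.30 and 0.33 (12.4% and 12.3%). Between the libraries, Pi16 cells differed by 0.17, with 1.40% of genes past 2-fold.

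The comparison of genotypes asks how stromal cells differ when the epithelium lacks Lef1. Pi16 cells made up 25.3% (23.8 to 26.9) of Pdgfra-positive cells in ApcMin and 12.4% (11.2 to 13.6) in VApcMinL, a ratio of 0.489 (0.431 to 0.555). Of the cells in the 4 groups they were 30.7% and 15% (a ratio of 0.490), and of all barcodes past the limits 11.5% and 5.57%. The Lpl group went from 28.6% to 23.8%, the Adamdec1 group from 12.6% to 28.7% and the Grem1 group from 16.1% to 17.5%. All 6 choosing genes had lower CPM in the VApcMinL members, so fewer such cells and lower levels of the genes that choose them cannot be told apart. Left out in turn, an alternative chosen after seeing the data, the 6 genes gave ratios of 0.456 to 0.501. Depth differed as well (medians of 13203.5 and 10497.5 UMIs in Pdgfra-positive cells), and with each cell thinned to 3000 UMIs before the rule the shares were 20.7% and 9.01%, a ratio of 0.434.

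**Figure D4:**
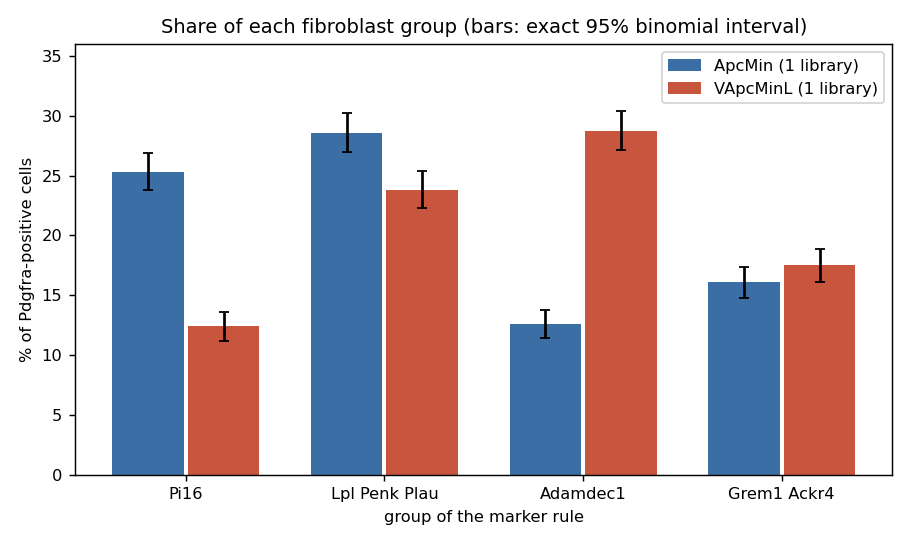
Share of each group among Pdgfra-positive cells (vertical axis, %) in ApcMin and VApcMinL, 1 library each, with exact 95% binomial intervals that cover counting error only. The Pi16 share is 25.3% and 12.4%, and the Adamdec1 share 12.6% and 28.7%.

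Within the Pi16 cells most genes were alike between genotypes, and 3 regional factors, Barx1, Six2 and Isl1, were among the genes that were lower in VApcMinL. Of 7798 genes, 70 (0.898%) were at least 2-fold higher in VApcMinL and 39 (0.500%) at least 2-fold lower, and the median log2 ratio was -0.05. Barx1, a homeobox factor of stomach mesenchyme, was at 41.7 CPM in ApcMin and 5.14 CPM in VApcMinL, a ratio of 0.123 (0.0804 to 0.181). Six2, a factor of the mesenchyme where stomach meets intestine, was at 17.1 and 2.09 CPM, a ratio of 0.122 (0.0601 to 0.223). Isl1, active in the same region, was at 32.6 and 8.18 CPM, a ratio of 0.251 (0.179 to 0.345). The same 3 genes were lower in VApcMinL in each other group, as for Barx1 in the Lpl group (67.4 and 2.97 CPM), the Adamdec1 group (21.2 and 0.238 CPM) and the Grem1 group (7.76 and 1.30 CPM). They are 3 of the 9 tested regional genes (median -0.04). Hoxa5, a further regional gene, was at 53.7 and 67.9 CPM, and Nkx2-3, a homeobox factor of intestinal mesenchyme, at 74.5 and 116 CPM.

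Adventitial genes were lower in VApcMinL as a list, with 2 of 19 past 2-fold (Anxa3 and Efhd1; 0.500% over all genes), 0 higher, and a median log2 ratio of -0.54 (-0.05 over all genes). Anxa3 went from 391 to 184 CPM, a ratio of 0.471 (0.439 to 0.505), and Efhd1 from 94.1 to 40.4 CPM, a ratio of 0.429 (0.369 to 0.497). The choosing genes were lower too, so the choice of members and this list moved in 1 direction. The fall was not particular to Pi16 cells. The list summed to 11194 and 8172 CPM in Pi16 cells and to 3717 and 3028 CPM in the Lpl group. In the Adamdec1 group it summed to 2901 and 2116 CPM, and in the Grem1 group to 3637 and 3269 CPM. Efhd1 had ratios of 0.412 to 0.842 in the other groups. Krtdap went from 62.7 to 25.3 CPM, a ratio of 0.404 (0.333 to 0.486), and Wnt10b from 15.8 to 6.47 CPM, a ratio of 0.410 (0.276 to 0.593). Other genes of the lowest 10 were Sfrp4 (37.0 and 14.1 CPM), Nme2, a nucleoside diphosphate kinase (37.4 and 13.3 CPM), Avpr1a, a vasopressin receptor (14.9 and 5.14 CPM), Negr1, an adhesion protein (17.4 and 7.04 CPM), and Ifit1. Ifit1, an interferon-induced gene, went from 71.3 to 25.1 CPM, a ratio of 0.353 (0.291 to 0.424), and was the only 1 of 15 interferon genes past 2-fold (median -0.33). In the other groups the ratios were 0.302 to 0.383 for Nme2 and 0.636 to 0.791 for Negr1, so both were lower in each group, and 0.274 to 0.988 for Ifit1, 0.578 to 2.83 for Avpr1a and 0.623 to 1.59 for Sfrp4. Thinned before the rule, Krtdap, Negr1 and Ifit1 were no longer past 2-fold (log2 ratios of -0.97, -0.70 and -0.65).

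The genes with the largest ratios in VApcMinL included Mgp, Alpl and Mpp6. Mgp, an inhibitor of calcification, was at 1331 CPM in ApcMin and 3651 CPM in VApcMinL, a ratio of 2.74 (2.69 to 2.80). It was the 1 of 14 general fibroblast genes past 2-fold (median -0.02), where over all genes 0.898% were higher and 0.500% lower. In the other groups Mgp was at 1734 and 2946 CPM (Lpl), 6757 and 5364 CPM (Adamdec1) and 7716 and 10305 CPM (Grem1). Alpl, tissue-nonspecific alkaline phosphatase, was at 10.4 and 36.4 CPM, a ratio of 3.49 (2.77 to 4.41). Mpp6, a membrane scaffold protein, was at 66.8 and 203 CPM, a ratio of 3.03 (2.76 to 3.33). Eln, which encodes elastin, went from 188 to 412 CPM and Mfap4 from 144 to 316 CPM. These were the 2 of 18 elastic fiber genes past 2-fold (median 0.29), against 0.898% higher over all genes. Mgp, Eln and Mfap4 were each more abundant in the Adamdec1 than in the Pi16 cells of the same library except Eln in VApcMinL (374 CPM).

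Growth factors were higher in 4 of 18 tested genes (0.898% over all genes) and lower in 0 (median 0.22). Ptn, the heparin-binding factor pleiotrophin, was at 69.9 and 225 CPM, a ratio of 3.22 (2.94 to 3.52). It was also higher in the Lpl group (179 and 441 CPM), and alike in the Adamdec1 (14.2 and 14.1 CPM) and Grem1 groups (156 and 146 CPM). Gas6, a ligand of the receptor Axl, was at 146 and 337 CPM, a ratio of 2.31 (2.16 to 2.47). Mdk, a relative of Ptn, was at 16.5 and 33.7 CPM and Kitl at 16.2 and 32.5 CPM. Igfbp3, the 1 of 5 IGF-binding genes past 2-fold (median 0.23), was at 7.39 and 40.2 CPM, below empty droplets (89.9 and 160 CPM). The other leading genes were Stbd1, a glycogen-binding protein (11.0 and 30.8 CPM), Carmn, a noncoding RNA of smooth muscle (9.23 and 24.2 CPM), Rgs7bp (8.73 and 22.3 CPM), Rasa3, a GTPase-activating protein (21.7 and 55.2 CPM), Aox3 and Dio2. Aox3, an aldehyde oxidase, went from 12.5 to 34.1 CPM (log2 ratio 1.45, and 0.83 when thinned). Dio2, which activates thyroid hormone, went from 10.3 to 31.8 CPM (log2 ratio 1.62), but its log2 ratio was 0.37 when thinned and 0.02 in members without any gene of the Adamdec1 set, an alternative chosen after seeing the data. In the other groups the ratios were 1.31 to 2.18 for Alpl, 1.40 to 2.01 for Mpp6, 1.64 to 3.57 for Stbd1, 1.30 to 1.86 for Carmn, 1.49 to 1.69 for Rasa3 and 1.35 to 5.42 for Dio2, all above 1, and 0.892 to 1.12 for Rgs7bp and 0.561 to 1.39 for Aox3. Serpina3n, a gene of the Grem1 set and so not ranked, was at 146 and 456 CPM, a gene chosen after its values were seen. It was higher in VApcMinL in each other group too, with ratios of 1.82 to 2.07.

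**Figure D5:**
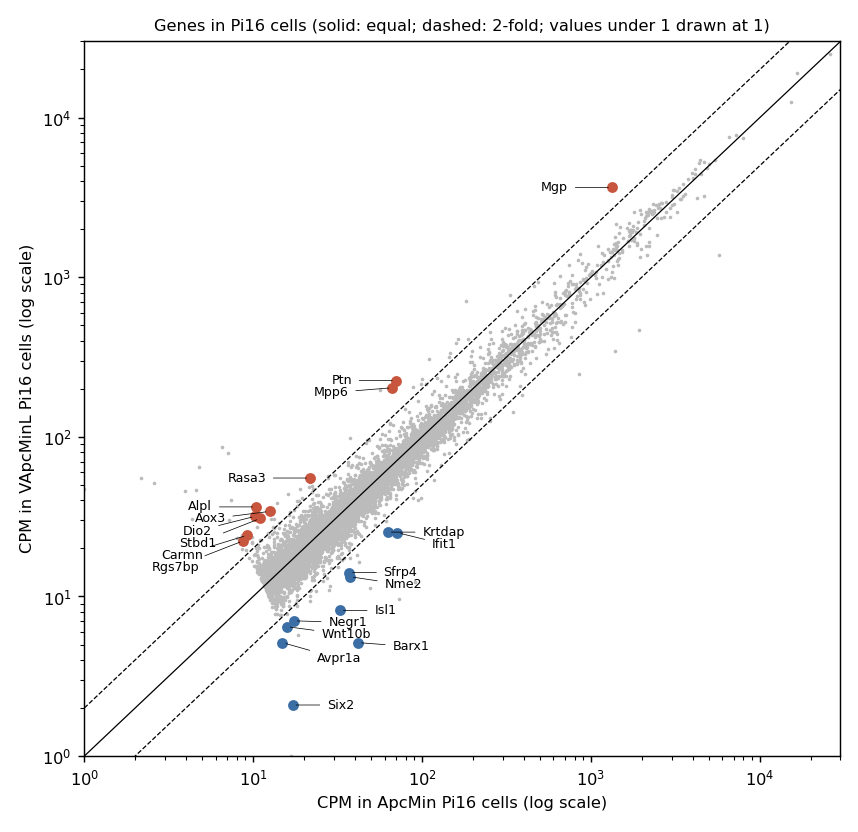
Each point is 1 of 7798 genes in Pi16 cells, with CPM in ApcMin (horizontal) and VApcMinL (vertical) on log axes; the solid line marks equal levels and the dashed lines 2-fold. Red and blue points are the 10 named genes on each side, such as Mgp (1331 and 3651 CPM) and Barx1 (41.7 and 5.14 CPM), and unlabelled points past the lines include hemoglobin and epithelial genes and genes held by few cells.

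Signals of other families changed in single genes (over all genes 0.898% were higher and 0.500% lower). Wif1, a Wnt inhibitor, had 0 UMIs in ApcMin and 247 UMIs (47.0 CPM) in VApcMinL, but 98.0% of them lay in 10 cells, and it was also higher in the Lpl group (0 and 82.3 CPM). Sfrp4 fell, so the 7 tested Wnt inhibitors had 1 higher and 1 lower (median -0.42), and Wnt10b was the 1 of 7 Wnt ligands and R-spondins that passed 2-fold (median -0.00). Bmp6, a BMP ligand, was at 23.6 and 10.8 CPM, the 1 of 9 genes past 2-fold in its list (median -0.26). Inhba, an activin subunit, was at 9.91 and 23.4 CPM, the 1 of 10 in its list (median 0.60), and its log2 ratio of 1.24 was -0.48 without its 10 richest cells. Hhip, a hedgehog-binding protein, was at 10.6 and 27.4 CPM, the 1 of 10 hedgehog and Fox genes (median -0.02), and Cyp26b1, which breaks down retinoic acid, at 13.3 and 30.5 CPM, the 1 of 9 retinoid genes (median 0.58). Cxcl14 (22.2 and 45.1 CPM) and Il11 (9.07 and 19.6 CPM) were the 2 of 17 chemokines and cytokines that were higher (median 0.33). Fabp4, a lipid-binding protein and the 1 of 7 adipogenic genes past 2-fold (median 0.52), was at 7.22 and 30.3 CPM, below empty droplets (869 and 377 CPM). Eln, Bmp6, Il11 and Fgf1 lie outside the naming rule and were chosen after their values were seen.

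In the remaining lists 0 genes differed 2-fold between genotypes. These were the 12 interstitial collagens (median -0.03), 13 basement membrane (-0.11), 12 collagen-processing (-0.16), 13 proteoglycan and hyaluronan (-0.06) and 18 protease and inhibitor genes (0.06). The same held for 11 complement (0.19), 11 guidance (-0.05), 17 mesenchymal transcription factor (-0.19), 15 immediate early (0.09), 11 heat shock (0.13) and 2 cell cycle genes (-0.25). Over all genes 0.898% were higher and 0.500% lower, so 0 is common for lists of these sizes.

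Among markers of other cell types, the genes called defining below were near the floor, while others of the same lists, such as Tek, Wt1 and Wnt5a, were not. The epithelial and erythroid lists differed most between genotypes. The 12 epithelial genes summed to 16.1 and 140 CPM in Pi16 cells (610 and 7401 CPM in empty droplets), with Fabp1 the most abundant at 2.18 and 55.2 CPM. The 6 erythroid genes summed to 9923 and 2439 CPM (70820 and 20673 CPM in empty droplets), with Hbb-bs the most abundant at 5740 and 1374 CPM. Both lists thus moved as the RNA in empty droplets did, and from hemoglobin and immunoglobulin genes free RNA was estimated at 6.30% of the UMIs of Pi16 cells in ApcMin and 3.52% in VApcMinL. The estimate depended on the genes, at 14.0% and 11.8% from hemoglobin alone and 1.90% and 2.27% from immunoglobulin alone. With the empty-droplet profile subtracted at the pooled estimate, 87 genes were at least 2-fold higher and 44 lower in VApcMinL, and the 45 values of the leading genes against the other groups and between genotypes stayed past 2-fold.

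Leukocyte genes (14 of 15 with a UMI, Cd3e at 0) summed to 307 and 468 CPM, led by the plasma cell gene Jchain (256 and 412 CPM; 17376 and 23080 CPM in empty droplets). Endothelial genes (12 of 12) summed to 128 and 96.3 CPM, nearly all from Tek, an angiopoietin receptor, at 122 and 83.7 CPM, whereas the defining genes Cdh5 and Cldn5 had 1 and 3 and 0 and 1 UMIs. Tek was above each other group (6.43 to 42.6 CPM). Mesothelial genes (9 of 11, Bnc1 and Muc16 at 0) summed to 77.1 and 87.4 CPM, mostly Wt1 at 64.8 and 58.4 CPM, a factor that the Lpl group also carried (51.3 and 25.6 CPM), while the defining gene Msln had 1 and 0 UMIs. Nkain4, chosen after its values were seen, gave 10.4 and 20.0 CPM of the mesothelial sum.

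Smooth muscle and pericyte genes (13 of 13) summed to 93.2 and 169 CPM, led by Tagln (23.1 and 29.3 CPM), with 2 and 7 UMIs of the defining gene Myh11. Of 4 tested, 1 was past 2-fold higher in VApcMinL (over all genes 0.898% were). Telocyte genes (10 of 10) summed to 408 and 486 CPM, led by Wnt5a, while Foxl1, 1 gene of that list, had 0 and 1 UMI. The list summed to 313 and 352 CPM in the Lpl group, 601 and 552 CPM in the Adamdec1 group and 385 and 388 CPM in the Grem1 group. The median log2 ratio of its 6 tested genes to the other groups was 0.41, so the list as a whole was not near the floor. Of 6 tested, 1 was past 2-fold higher in VApcMinL, again against 0.898% over all genes. Adipocyte genes (3 of 6, with Adipoq, Lep and Retn at 0) summed to 0.672 and 1.71 CPM, led by Car3.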

How the data were processed

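RNA was measured in 2 libraries of sorted cells, 1 per genotype, with 10x Genomics v3 chemistry. The deposited files hold raw UMI counts per gene and barcode that the authors made with Cell Ranger; their notes name release 2.1.1 (and Seurat 3.1.1), the matrix headers 3.1.0. Values are whole numbers without normalization. Members and gene lists were chosen with earlier results of these data known.

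UMIs were summed over the cells of a group and library and scaled to CPM. A gene was tested for size when the members held at least 200 UMIs (for genes below the other groups, when each other group did), and called at 2-fold. For log2 ratios and calls, counts below 3 were set at 3. Named genes are the choosing genes, the 15 highest and 10 lowest against the other groups by the weakest of 6 ratios, and the 10 largest and 10 smallest ratios between genotypes whose 10 richest cells held under 50% of UMIs and whose higher CPM reached 2 times the empty-droplet level (no mitochondrial, Xist, Y-linked or rule gene was ranked). In each list, the 3 most abundant genes and up to 3 with the largest change were added.

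Doublets were not removed. An alternative dropped 0.8% of barcodes per 1000 by Scrublet score (scanpy 1.11.5). Calculations were tested on simulated data. Tools were Python 3.11.15 with scipy 1.17.1, numpy 2.4.6, matplotlib 3.10.9 and pandas 2.3.3. Positions are from GENCODE vM21 on GRCm38 and promoter sequences from RefSeq GRCm38.p6.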

Additional observations from a re-analysis of the deposited data

Results flagged for a closer look

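Barcodes of 500 to 2999 UMIs lie outside the rule, and a few of them met the rest of it. In ApcMin these were 6 of 104 such Pdgfra-positive barcodes (5.77%, median 2539 UMIs), and in VApcMinL 4 of 236 (1.69%, median 1935.50 UMIs). They are a signal in data that the main comparisons did not use (an alternative with a minimum of 2000 UMIs had 763 and 367 members), and whether they are cells was not tested.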

How the results depend on the processing

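No paired analysis was possible because the genotypes are represented by 1 library each. The share ratio of Pi16 cells stayed below 1 under each alternative run, from 0.434 (cells thinned to 3000 UMIs before the rule) to 0.510. With at least 50 UMIs per gene, 232 genes were higher and 123 lower in VApcMinL, 113 were above and 61 below each other group. With at least 500 UMIs, 27 were higher and 22 lower in VApcMinL, from fewer genes tested. Thinned before the rule, 24 were lower in VApcMinL, and the cause was not tested. The other 73 of these counts and share ratios kept within their interval or within 1.5 times the count.

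Of 490 values for 45 named results past 2-fold (limits on UMIs per gene, which cannot move them, not counted), 12 were no longer past it and 0 changed sign. Besides those given with the genes, these were Dio2 (log2 ratio 0.85) and Ifit1 (-0.90) without their 10 richest cells, Krtdap (-0.94) in members without any gene of the Adamdec1 set, and Negr1 (-0.69) with 2 or more choosing genes. Among 155 list genes, 1 value past 2-fold changed sign (Inhba), and 63 values between genotypes and 9 against the other groups changed sign while under 2-fold. The alternatives without a choosing gene and without members that hold Adamdec1-set genes were chosen after seeing the data. Depth limits genes with few UMIs: Lef1, at 2 and 1 UMIs, could not be compared.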
